A study of Homo sapiens with 24 samples.

Results

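The response to the lower dose of UNC0638 was described across genes and repeats in U937 cells, a human leukaemia line of monocytic type. Its members are 6 of the study's 24 RNA-seq libraries, 3 from cells given 2 µM UNC0638 and 3 from cells given DMSO, taken by the treatment named in their labels. The further groups used below are 3 libraries at 4 µM UNC0638, 6 with hairpins 2 and 3 against G9a, and 3 with a scrambled hairpin. The remaining 6 libraries carry hairpins 2 and 4 against SUV39H1, with 3 days of selection. They enter only the count minimum, the scaling factors and the estimate of the spread. Cells on UNC0638 were collected after 3 days. The G9a hairpins were delivered by lentivirus and followed by 3 days of puromycin, while no selection is given for the scrambled hairpin and no collection time for DMSO. All groups are 1 cell line, and nothing in the labels tells whether the replicates were grown apart. The p-values therefore measure the spread between libraries of a group, estimated over all 8 groups of the study, and that spread may be technical. A name was tested if its counts passed a minimum over all 24 libraries: 20147 of 55773 gene names and 929 of 992 repeat names did.

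G9a and GLP, encoded by EHMT2 and EHMT1, form a complex that places mono- and dimethylation on lysine 9 of histone H3, a mark found over silent genes in euchromatin. SUV39H1 and SUV39H2 add the third methyl group and act mainly on repeats and pericentric heterochromatin. UNC0638 competes with histone for the substrate groove of G9a and GLP, so it lowers their activity and need not lower their transcripts. In myeloid cells, interferon-stimulated genes are an inducible programme in which IRF9 and its partners bind a promoter element called ISRE, and MHC class II genes are driven by factors bound to an element called the X box.

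Gene counts came to 39820335, 38779629 and 48806194 in the 2 µM libraries and to 44504803, 31851239 and 47806304 in the DMSO libraries, and levels are given as CPM, the counts scaled to library size with TMM factors. The myeloid identity was checked with markers: SPI1, CD33, CD4, PTPRC, ITGB2, LYZ and ELANE were present in all 6 libraries, whereas CD14 and MPO, markers of monocytes and promyelocytes, were near 0, at most 0.351 and 0.866 CPM at 2 µM and 0.381 and 1.06 CPM in DMSO. Markers of other lineages were summed. Erythroid genes came to 194 to 200.0 CPM at 2 µM and 173 to 196 CPM in DMSO with 9 of 19 at 0, and lymphoid markers to 529 to 569 CPM at 2 µM and 518 to 583 CPM in DMSO with 6 of 25 at 0. Epithelial, fibroblast and endothelial markers came to 1.73 to 2.21 CPM at 2 µM and 1.78 to 2.17 CPM in DMSO with 8 of 17 at 0. Where a bulk level fell, fewer cells of a type and less RNA per cell cannot be told apart.

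The targets of the drug were not called at the RNA level. EHMT2 had 128, 140.2 and 139 CPM at 2 µM, against 127, 147 and 163 CPM in DMSO (log2 change -0.11 ± 0.06, adjusted p = 0.419), and the gene was called as lower only when DMSO library 1 was left out. EHMT1 had 81.9, 84.5 and 82.9 CPM at 2 µM, against 78.7, 87.4 and 84.2 CPM in DMSO, and the groups overlapped for both genes. SUV39H1 (-0.06) and SUV39H2 (0.10) were not called either, and neither was any of the 11 tested H3K9 methyltransferases. Here and below, log2 changes carry their standard error, and a gene is called at an adjusted p under 0.05 in edgeR's quasi-likelihood test with Benjamini-Hochberg adjustment over all genes tested.

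At 2 µM UNC0638, 771 genes rose (3.83% of those tested) and 673 fell (3.34%), 1444 in all (7.17%). Rises were larger than falls: 180 genes rose at least 2-fold (0.893%) and 24 fell at least 2-fold (0.119%), and the median called gene rose 1.35-fold or fell 1.21-fold. Rises outnumbered falls among genes of low mean level, and falls outnumbered rises among those of high level. Of 5176 genes with a mean under 1 CPM, 142 rose and 38 fell, whereas of 2515 genes at 100 CPM or more 78 rose and 108 fell. All 3 libraries at 2 µM lay above all 3 DMSO libraries for 2051 genes (10.2%) and below them for 1956 (9.71%). Fitted on the 6 libraries alone 447 genes rose and 270 fell, and without DMSO library 1 1073 rose and 1124 fell.

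**Figure D1:**
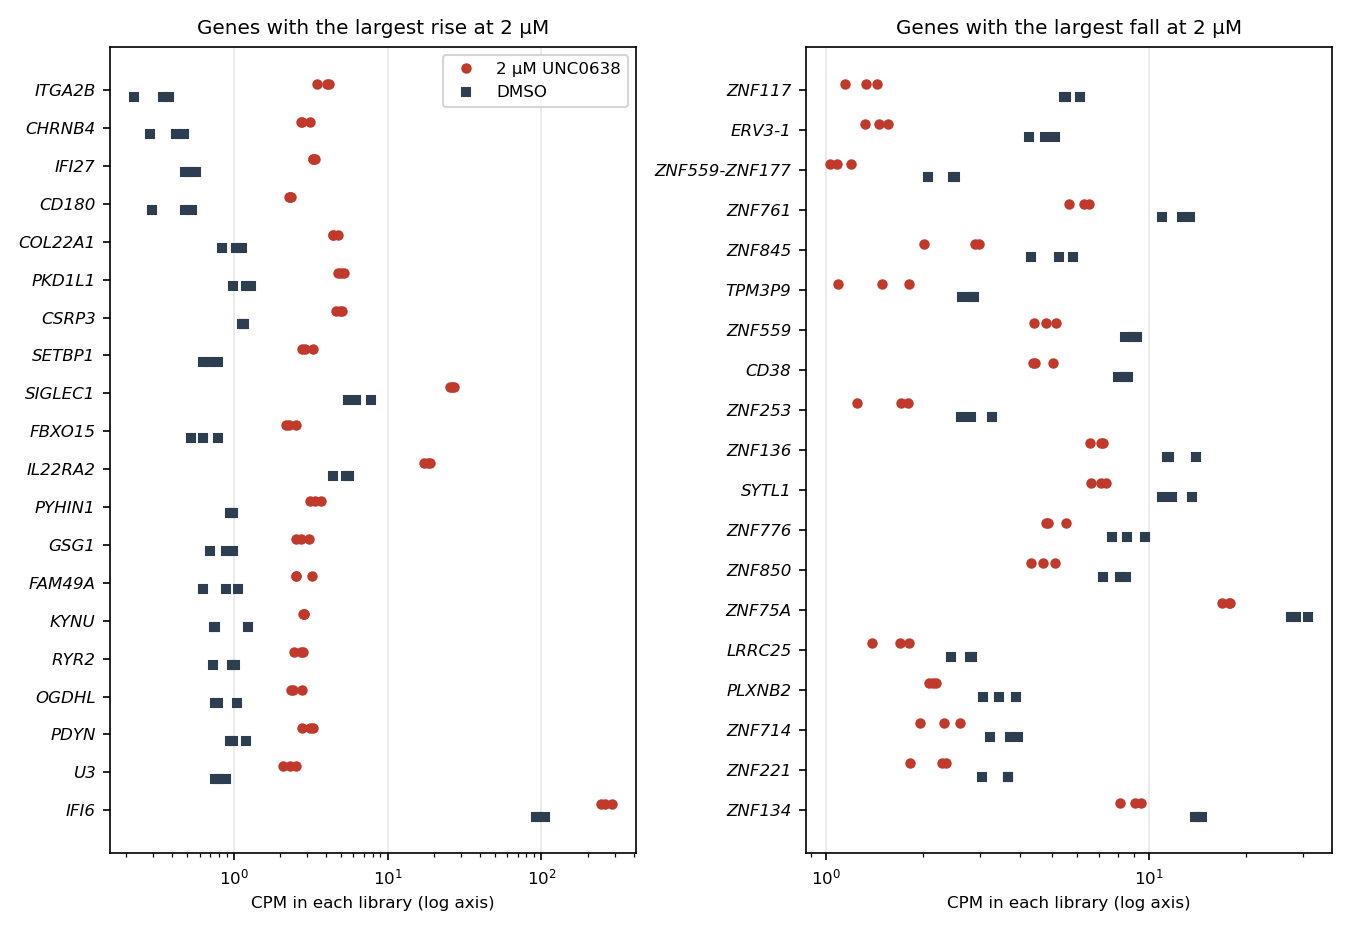
Level in each library, in CPM on log axes, of the 20 genes with the largest rise (left) and 19 of the 20 with the largest fall (right) among called genes that reached 2 CPM in their higher group; circles are 2 µM UNC0638 and squares DMSO, 3 libraries each. By the rule of choice no circle overlaps a square of its gene, while many risers lie near or below 1 CPM in DMSO, and most fallers have ZNF symbols.

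Many of the largest rises were in genes near or below 1 CPM in DMSO cells, with IFI6, SIGLEC1 and IL22RA2 as exceptions. ITGA2B, the platelet integrin subunit αIIb (chr17:42449548-42466873, minus strand, hg19), had 4.04, 4.19 and 3.46 CPM at 2 µM, against 0.226, 0.349 and 0.381 CPM in DMSO (log2 change 3.60 ± 0.18, adjusted p = 1.13e-13). CHRNB4 had 3.13, 2.76 and 2.78 CPM at 2 µM, against 0.474, 0.285 and 0.423 CPM in DMSO (log2 change 2.82 ± 0.19, adjusted p = 2.17e-11), and it encodes a subunit of neuronal nicotinic acetylcholine receptors. For neither gene did the groups overlap. CSRP3, which encodes a muscle LIM protein, had 5.05, 4.92 and 4.66 CPM at 2 µM, against 1.15, 1.17 and 1.14 CPM in DMSO (log2 change 2.07 ± 0.12, adjusted p = 1.70e-12). Genes known from other tissues rose too: COL22A1, a collagen (2.19 ± 0.14), PKD1L1, a polycystin-family gene of left-right patterning (2.11 ± 0.12), RYR2, the cardiac calcium release channel (1.54 ± 0.15), and PDYN, which encodes the dynorphin precursor (1.52 ± 0.15). Leukocyte genes were in the same range, CD180, a relative of the Toll-like receptors (2.42 ± 0.15), and IL22RA2, the soluble decoy receptor of interleukin 22. IL22RA2 had 18.2, 17.3 and 18.8 CPM at 2 µM, against 5.37, 5.58 and 4.42 CPM in DMSO (log2 change 1.84 ± 0.09, adjusted p = 3.02e-14), without overlap. U3 (1.49 ± 0.18) is a name shared by several small nucleolar RNA copies, and its count is uncertain. These genes were taken by size among called genes whose groups do not overlap, and all 20 kept their calls under each alternative run.

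Interferon ligands and receptors gave no call, and 5 genes of the signalling step rose. Of 16 interferon ligands and receptors listed with counts, 6 passed the count minimum, and 0 of 6 were called in either direction (median log2 change 0.01). IFNB1, the only ligand that passed the count minimum, had 0.151, 0.260 and 0.0825 CPM at 2 µM, against 0.0677, 0.159 and 0.0423 CPM in DMSO. Its groups overlapped (log2 change 0.94, adjusted p = 0.373), and at levels so near 0 few counts stand behind a value. The receptor subunits IFNAR1 (-0.02) and IFNAR2 (-0.04) were not called. Among 20 signalling genes 5 rose and 1 fell, with a median of 0.01. Counts of a gene list, here and below, stand beside 3.83% of all genes tested higher and 3.34% lower. The lists were chosen with earlier results of these data known, so these shares are a description and not a test. IRF7, the amplifier of interferon alpha transcription, had 32.4, 33.2 and 33.6 CPM at 2 µM, against 17.6, 19.9 and 19.5 CPM in DMSO (log2 change 0.80 ± 0.06, adjusted p = 3.31e-10). Every treated library was above every DMSO library. IRF9, the DNA-binding partner of STAT2, rose (0.44 ± 0.05), and so did USP18, which removes ISG15 from proteins and restrains the receptor (0.53 ± 0.07). STAT2 rose (0.21 ± 0.05) and IRF1, a factor induced by interferon gamma, fell (-0.23 ± 0.06), but both calls ended when the 6 libraries were fitted alone (adjusted p = 0.0702 for STAT2 and 0.123 for IRF1). JAK1 and TYK2, the receptor kinases, were not called (-0.01 and -0.11).

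Sensors of foreign nucleic acid rose in part. Of 15 RNA-sensing genes 6 rose and 0 fell (median 0.15), and of 14 DNA-sensing genes 5 rose and 1 fell (median 0.01). IFIH1, the gene of MDA5, which binds long double-stranded RNA, had 91.5, 91.5 and 93.2 CPM at 2 µM, against 71.6, 67.96 and 68.00 CPM in DMSO (log2 change 0.41 ± 0.03, adjusted p = 1.78e-09). DDX58, the gene of RIG-I, rose (0.56 ± 0.07), as did DHX58 (0.60 ± 0.09) and the RNA-dependent kinase EIF2AK2 (0.53 ± 0.04). The adaptor MAVS, through which both sensors signal, was not called (-0.07). On the DNA side, IFI16 had 219, 206 and 208 CPM at 2 µM, against 153, 138 and 131 CPM in DMSO (log2 change 0.58 ± 0.05, adjusted p = 3.57e-09). Its relative PYHIN1 rose (1.80 ± 0.12), while cGAS, listed as MB21D1 (-0.08), and STING, listed as TMEM173 (-0.01), were not called.

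Of antiviral effectors, the products that act on viruses, 23 of 36 rose and 0 fell, with a median log2 change of 0.52 against -0.00 over all genes tested. In the fit of the 6 libraries alone 20 rose. IFI27, a small membrane protein induced by type I interferon, had 3.28, 3.38 and 3.26 CPM at 2 µM, against 0.519, 0.571 and 0.486 CPM in DMSO (log2 change 2.66 ± 0.14, adjusted p = 2.53e-13). SIGLEC1, a sialic acid receptor of macrophages that captures enveloped viruses, had 25.6, 26.9 and 26.1 CPM at 2 µM, against 5.55, 6.28 and 7.82 CPM in DMSO (log2 change 1.99 ± 0.08, adjusted p = 1.92e-15). Both are among the largest rises, which were taken from genes whose groups do not overlap, so their separation follows from that choice. IFI6, a small protein of the endoplasmic reticulum, had 289, 259 and 246 CPM at 2 µM, against 106, 93.5 and 92.3 CPM in DMSO (log2 change 1.44 ± 0.07, adjusted p = 3.05e-14). The 2′-5′ oligoadenylate synthetases, which activate RNase L, rose together, with log2 changes of 1.30 ± 0.05 for OAS1, 1.62 ± 0.20 for OAS2 and 1.00 ± 0.05 for OAS3. OAS3 had 183, 185 and 191 CPM at 2 µM, against 85.8, 96.9 and 97.4 CPM in DMSO, with no overlap. IFIT1 (0.65 ± 0.07), IFIT3 (0.44 ± 0.05) and IFIT5 (1.31 ± 0.12), which bind viral RNA ends, rose, whereas their neighbour IFIT2 did not (0.08 ± 0.06, adjusted p = 0.558). The list was not uniform. MX1 (0.26), MX2 (0.12), RSAD2 (0.25), IFITM2 (0.07) and IFITM3 (0.06) were not called, although MX2 passed under DESeq2 and with replicate number as a block.

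ISG15 and its conjugation genes, with the PARP and TRIM genes listed beside them, rose in 14 of 20 and fell in 0 (median 0.33). In the fit of the 6 libraries alone 10 rose. ISG15, a ubiquitin-like protein that is attached to newly made proteins, had 80.7, 78.7 and 83.7 CPM at 2 µM, against 38.2, 41.1 and 40.9 CPM in DMSO (log2 change 1.02 ± 0.06, adjusted p = 7.95e-12). PARP9, a partner of the ubiquitin ligase DTX3L, had 60.5, 59.8 and 61.1 CPM at 2 µM, against 33.4, 33.01 and 33.5 CPM in DMSO (log2 change 0.86 ± 0.04, adjusted p = 1.75e-14), and the groups did not overlap in either. Of 22 GBP, SLFN, SAMD9 and APOBEC3 genes 4 rose, among them SAMD9 (0.69 ± 0.07) and SAMD9L (0.87 ± 0.07), and 0 fell.

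Promoter stretches of 6 genes are shown because they carry an ISRE match and the genes rose, CXCL10 from the chemokine list below and the rest from these lists. That of IFITM3 is shown because it carries the same match and was not called. The 6 were picked for their match, and risers such as OAS1, PARP9 and DDX58 had none in the window searched. The element was searched as GAAA, any 2 bases, GAAA on both strands, from 250 bases before to 50 after the RefSeq start (GRCh38.p14). It was found in 996 of 27305 promoters (3.65%). A match describes letters and not binding. Of the interferon-list genes with a promoter in the RefSeq table, 21 of 37 that rose and 9 of 32 that were not called held it, shares that are not compared because many genes had no promoter there. Capitals mark the matches that lie whole within a stretch, 2 of them overlapping in ISG15. Each stretch is 100 bases, 5′ to 3′ on the gene's strand. IFI27, IFI6, OAS3 and IFIH1 held further matches in the window searched, which are not marked. That of IFI27 runs into the start of its stretch, and those of IFI6, OAS3 and IFIH1 lie outside theirs. The stretches are chr14:94110631-94110730, plus strand for IFI27, chr1:27672196-27672295, minus strand for IFI6, chr12:112938374-112938473, plus strand for OAS3, chr1:1013380-1013479, plus strand for ISG15, chr2:162318685-162318784, minus strand for IFIH1, chr4:76023629-76023728, minus strand for CXCL10 and chr11:320861-320960, minus strand for IFITM3.
IFI27: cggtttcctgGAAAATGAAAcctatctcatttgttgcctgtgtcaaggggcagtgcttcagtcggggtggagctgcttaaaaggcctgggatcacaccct
IFI6: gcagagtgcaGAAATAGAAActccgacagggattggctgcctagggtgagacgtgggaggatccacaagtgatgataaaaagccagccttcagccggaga
OAS3: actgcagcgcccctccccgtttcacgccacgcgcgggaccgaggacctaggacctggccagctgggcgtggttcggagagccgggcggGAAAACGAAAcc
ISG15: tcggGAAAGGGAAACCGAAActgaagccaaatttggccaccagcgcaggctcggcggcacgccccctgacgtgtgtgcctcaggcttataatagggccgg
IFIH1: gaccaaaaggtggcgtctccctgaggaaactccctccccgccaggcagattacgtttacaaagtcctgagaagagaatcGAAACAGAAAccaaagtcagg
CXCL10: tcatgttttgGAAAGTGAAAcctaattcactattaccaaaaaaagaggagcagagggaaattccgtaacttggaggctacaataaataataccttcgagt
IFITM3: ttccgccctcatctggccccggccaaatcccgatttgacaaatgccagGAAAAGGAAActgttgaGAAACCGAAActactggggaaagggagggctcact

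Of 14 tested MHC class II genes 10 rose and 0 fell, with a median log2 change of 0.69, while of 22 class I genes 8 rose and 0 fell, with a median of 0.09. In the fit of the 6 libraries alone 7 class II genes and 5 class I genes rose. HLA-DRA, the alpha chain of HLA-DR, had 67.5, 62.5 and 61.4 CPM at 2 µM, against 29.5, 30.3 and 28.9 CPM in DMSO (log2 change 1.11 ± 0.06, adjusted p = 1.13e-12). Every treated library was above every DMSO library. HLA-DRB5 (0.81 ± 0.07), HLA-DRB1 (0.46 ± 0.06), HLA-DPA1 (1.54 ± 0.18) and HLA-DPB1 (1.85 ± 0.20) rose too, although reads of such near-identical paralogs may be split unevenly by the counting. HLA-DMA, a subunit of the dimer that helps load peptide, had 8.88, 11.2 and 10.7 CPM at 2 µM, against 5.68, 6.34 and 6.43 CPM in DMSO (log2 change 0.74 ± 0.08, adjusted p = 3.21e-07). The master regulator CIITA (0.10, adjusted p = 0.374) and the invariant chain gene CD74 (-0.04) were not called. In class I, HLA-B (0.25 ± 0.04), HLA-C (0.24 ± 0.04) and the peptide transporter TAP1 (0.25 ± 0.04) rose. NLRC5, the class I regulator, was not called (0.02). The X box was searched on both strands as CCNAGNNAC directly followed by NGATG, where N is any base. It was found in 20 of 27305 promoters (0.0732%), HLA-DMA and HLA-DMB among them. Of 7 class II genes that rose and had a promoter in the RefSeq table, only these 2 held it. HLA-DRB1, HLA-DRB5, HLA-DPA1, HLA-DPB1 and HLA-DQA1 did not. HLA-DRA had no promoter matched in the RefSeq table, so it was not searched. The 2 stretches show the X box in capitals (chr6:32953124-32953223, minus strand for HLA-DMA and chr6:32941030-32941129, minus strand for HLA-DMB). HLA-DMB rose (0.65 ± 0.14), but its call ended in the fit of the 6 libraries alone.
HLA-DMA: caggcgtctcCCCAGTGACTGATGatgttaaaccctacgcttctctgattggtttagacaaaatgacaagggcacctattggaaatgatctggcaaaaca
HLA-DMB: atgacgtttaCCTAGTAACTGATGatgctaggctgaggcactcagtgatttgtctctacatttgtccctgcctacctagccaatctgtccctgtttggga

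**Figure D2:**
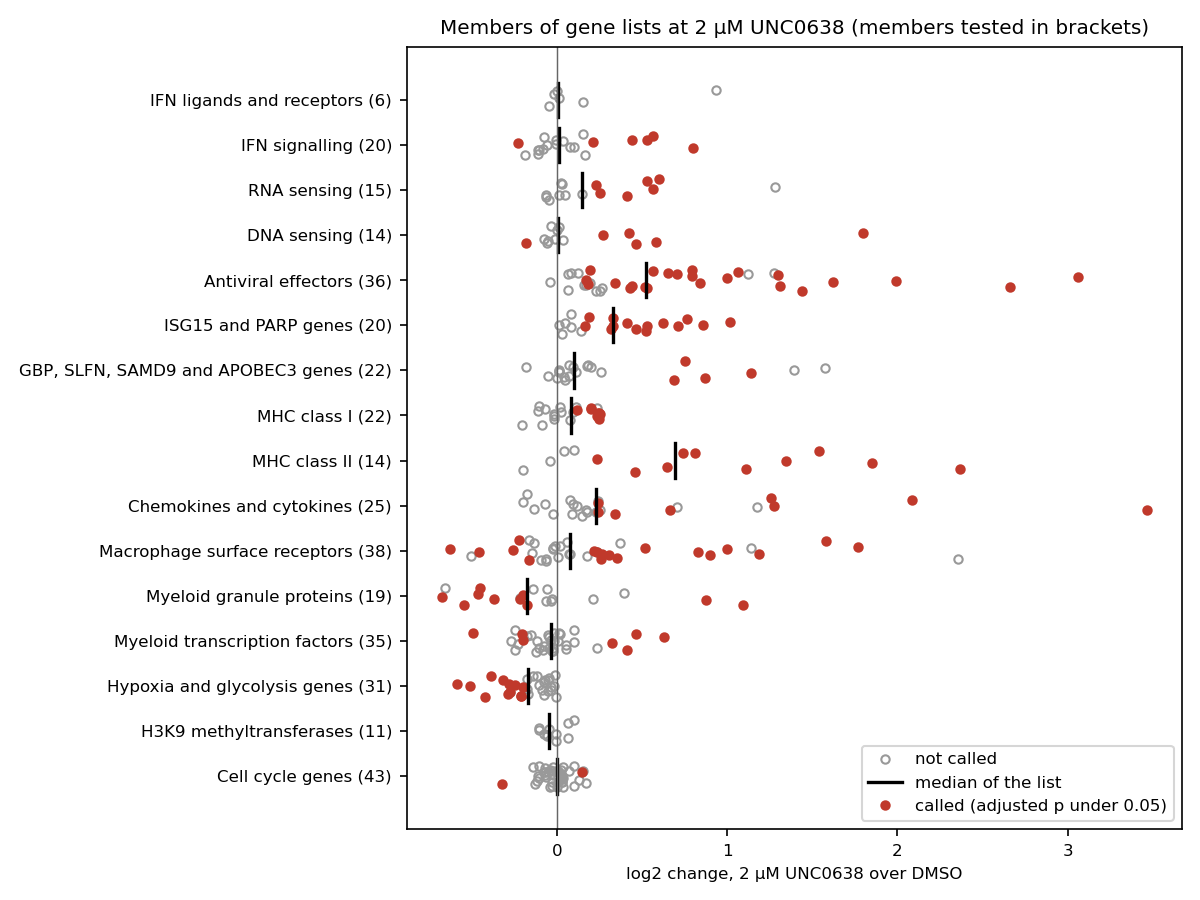
Log2 change at 2 µM UNC0638 over DMSO for each tested member of 16 gene lists; red points were called and black marks are list medians. Members called in the antiviral, ISG15 and MHC class II lists all lie right of 0, and those in the hypoxia and glycolysis list all lie left of it.

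Of 25 chemokines and cytokines 8 rose and 0 fell (median 0.23), or 4 in the fit of the 6 libraries alone. CXCL10, an attractant of T cells whose promoter stretch is printed above, had 7.72, 6.51 and 6.04 CPM at 2 µM, against 3.25, 2.82 and 2.30 CPM in DMSO (log2 change 1.27 ± 0.14, adjusted p = 1.71e-07), and CXCL11, which uses the same receptor, rose (1.26 ± 0.17). CCL2, the monocyte attractant, rose (0.34 ± 0.05), and CCL4 rose (0.66 ± 0.11). Enzymes of the kynurenine pathway, which degrades tryptophan, gave 2 rises of 10, beside 3.83% of all genes. KYNU had 2.88, 2.84 and 2.89 CPM at 2 µM, against 1.24, 0.761 and 0.740 CPM in DMSO (log2 change 1.63 ± 0.16, adjusted p = 4.08e-08), and TDO2 rose (1.78 ± 0.23), while KMO was not called (-0.06). Of 19 metalloproteinases and inhibitors 2 rose and 2 fell, and 0 fell in the fit of the 6 libraries alone. MMP1, interstitial collagenase, had 21.3, 19.6 and 19.6 CPM at 2 µM, against 8.52, 7.99 and 7.44 CPM in DMSO (log2 change 1.34 ± 0.07, adjusted p = 5.84e-13), and the groups did not overlap.

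Surface receptors of macrophages moved both ways, with 13 of 38 higher and 5 lower (median 0.07). These counts were 7 and not 13 without the 2 libraries numbered 1, and 1 and not 5 in the fit of the 6 libraries alone. CD36, a scavenger receptor for oxidised lipid, had 102, 95.5 and 93.1 CPM at 2 µM, against 59.9, 52.1 and 51.2 CPM in DMSO (log2 change 0.83 ± 0.06, adjusted p = 9.26e-11). MARCO, a scavenger receptor for bacteria, had 25.04, 29.4 and 29.1 CPM at 2 µM, against 15.5, 14.8 and 14.5 CPM in DMSO (log2 change 0.90 ± 0.07, adjusted p = 1.28e-10). Both were separated without overlap, as was FCGR2B, the inhibitory Fc receptor (0.52 ± 0.06). CSF1R, the receptor of the macrophage growth factor, fell (-0.46 ± 0.08). Of 19 tested granule proteins of early myeloid cells 8 fell, 2 rose and 9 were not called, with a median of -0.18. In the fit of the 6 libraries alone 6 fell and 1 rose. The largest change of the list was a rise, that of LTF (log2 change 1.09, adjusted p = 0.0145). PRTN3, proteinase 3, had 188, 218 and 222 CPM at 2 µM, against 285, 359 and 361 CPM in DMSO (log2 change -0.68 ± 0.08, adjusted p = 2.41e-06). ELANE, neutrophil elastase (-0.45 ± 0.06), AZU1, azurocidin (-0.54 ± 0.08), CTSG, cathepsin G (-0.37 ± 0.04), and RNASE3, an eosinophil granule ribonuclease (-0.47 ± 0.06), fell with it. Of these, AZU1, PRTN3 and ELANE are neighbours on chromosome 19 (chr19:825097-856242, hg19). Lysozyme (LYZ) fell (-0.18 ± 0.04), a call that ended in the fit of the 6 libraries alone. The myeloid transcription factors SPI1 (-0.07) and CEBPA (0.01) were not called, and of 35 such factors 4 rose and 3 fell (2 and 2 in the fit of the 6 libraries alone), among the falls RUNX1 (-0.20 ± 0.04) and NFE2 (-0.49 ± 0.08). B-cell genes of the lymphoid list moved in both directions, with PAX5 (0.56 ± 0.06) and CD22 (0.60 ± 0.12) higher and CD79A lower (-0.57 ± 0.07).

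Genes of hypoxia and glycolysis fell in 12 of 31 and rose in 0, with a median of -0.17. ADM, adrenomedullin, a vasodilator peptide, had 4.37, 4.27 and 4.99 CPM at 2 µM, against 7.10, 6.56 and 6.85 CPM in DMSO (log2 change -0.59 ± 0.07, adjusted p = 2.50e-06). NDRG1, a stress-response gene, had 181, 206 and 203 CPM at 2 µM, against 258, 286 and 295 CPM in DMSO (log2 change -0.51 ± 0.06, adjusted p = 6.94e-07). The groups were separate in both, and the same was true of the glucose transporter SLC2A3 (-0.29 ± 0.03) and the glycolytic regulator PFKFB4 (-0.31 ± 0.04). PDK1, which shuts pyruvate out of the mitochondrion, fell (-0.25 ± 0.05), as did VEGFA (-0.20 ± 0.03). HIF1A, the oxygen-regulated factor of this programme, was not called (-0.01), and neither were GAPDH (-0.04) and PGK1 (-0.08). Of 11 H3K9 demethylases 3 fell and 0 rose, KDM3A (-0.21 ± 0.04), which the hypoxia list holds too, KDM3B (-0.27 ± 0.04) and KDM4B (-0.19 ± 0.05), the last not called in the fit of the 6 libraries alone.

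Lysosome and autophagy genes changed in 6 of 40, 5 higher and 1 lower, with only 2 higher in the fit of the 6 libraries alone. NPC1, the lysosomal cholesterol exporter, had 429, 439 and 441 CPM at 2 µM, against 269, 275 and 293 CPM in DMSO (log2 change 0.65 ± 0.04, adjusted p = 8.90e-12). GPNMB, a membrane glycoprotein of lysosomes, rose as well (0.51 ± 0.03). Of 43 cell cycle genes 1 rose and 1 fell, of 32 ribosome biogenesis genes 2 rose, and of 21 genes of H3K9 reading and silencing 1 fell, beside 3.83% of all genes higher and 3.34% lower. Of 44 cancer-testis and germline genes listed with counts, 8 passed the count minimum, 1 rose and 1 fell. Imprinted genes fell in 4 of 17, including SNRPN (-0.25 ± 0.04) and SNURF (-0.25 ± 0.04), which overlap on 1 transcript and cannot be told apart.

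Metabolic and stress lists held calls in both directions, against 3.83% of all genes higher and 3.34% lower. Of 27 sterol synthesis genes 3 rose and 1 fell, and 0 in either direction were called in the fit of the 6 libraries alone. Of 19 lipid droplet and efflux genes 1 rose and 2 fell, of 15 serine, glycine and one-carbon genes 1 rose, of 24 amino acid and endoplasmic reticulum stress genes 1 rose and 3 fell, and of 24 oxidative stress genes 3 rose and 1 fell. Among 21 p53 targets and CDK inhibitors 2 rose and 1 fell, and of 17 BCL2 family genes 1 rose. In the fit of the 6 libraries alone 0 lipid genes rose and 2 fell, 0 and 2 among endoplasmic reticulum stress genes, 2 and 0 among oxidative stress genes and 1 and 0 among p53 targets. Polycomb genes fell in 2 of 19, with 0 in the fit of the 6 libraries alone, histone variants in 1 of 22 and protocadherins in 1 of the 3 that passed the count minimum.

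Zinc finger genes made up most of the largest falls. ZNF117 and ERV3-1 lie on top of each other on chromosome 7 (chr7:64432154-64467062 and chr7:64451187-64467121, minus strand, hg19), so reads may be shared between them. ZNF117 had 1.34, 1.15 and 1.44 CPM at 2 µM, against 6.13, 5.45 and 5.56 CPM in DMSO (log2 change -2.12 ± 0.13, adjusted p = 7.95e-12). ERV3-1, the envelope gene of an old endogenous retrovirus, had 1.46, 1.56 and 1.32 CPM at 2 µM, against 4.78, 4.25 and 5.12 CPM in DMSO (log2 change -1.72 ± 0.12, adjusted p = 4.36e-11). In both, every treated library lay below every DMSO library, which the choice of the largest falls requires. CD38, an ectoenzyme that consumes NAD (-0.86 ± 0.08), and SYTL1, a vesicle-tethering protein (-0.79 ± 0.08), were among the 20 largest falls and lie outside this family.

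Most human ZNF genes encode KRAB zinc finger proteins, which recruit silencing machinery to repeats, and they sit in tandem clusters, the largest on chromosome 19. ZNF genes were counted by symbol, ZNF followed by digits alone. Of 148 tested ZNF genes on chromosome 19, 62 fell (41.9%) and 0 rose, with a median log2 change of -0.25. Of 185 on other chromosomes 23 fell (12.4%) and 3 rose, with a median of -0.05, and 13 fell in the fit of the 6 libraries alone, where 50 fell on chromosome 19. ZNF761 had 6.31, 5.68 and 6.54 CPM at 2 µM, against 12.7, 13.4 and 10.95 CPM in DMSO (log2 change -0.99 ± 0.08, adjusted p = 2.04e-09), and the groups did not overlap, by the same choice. ZNF550, named by its p-value, had 15.3, 16.7 and 15.9 CPM at 2 µM, against 24.3, 25.2 and 23.8 CPM in DMSO (log2 change -0.61 ± 0.05, adjusted p = 2.48e-10), without overlap. Chromosome 19 as a whole had 138 of 1436 genes lower (9.61%) and 27 higher. With the 148 set aside, 76 of 1288 were lower (5.90%). These 76 still hold zinc finger genes with other symbols, such as ZNF585A and ZNF585B, and clone-based names inside the ZNF clusters. The share is therefore not one without zinc finger genes.

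**Figure D3:**
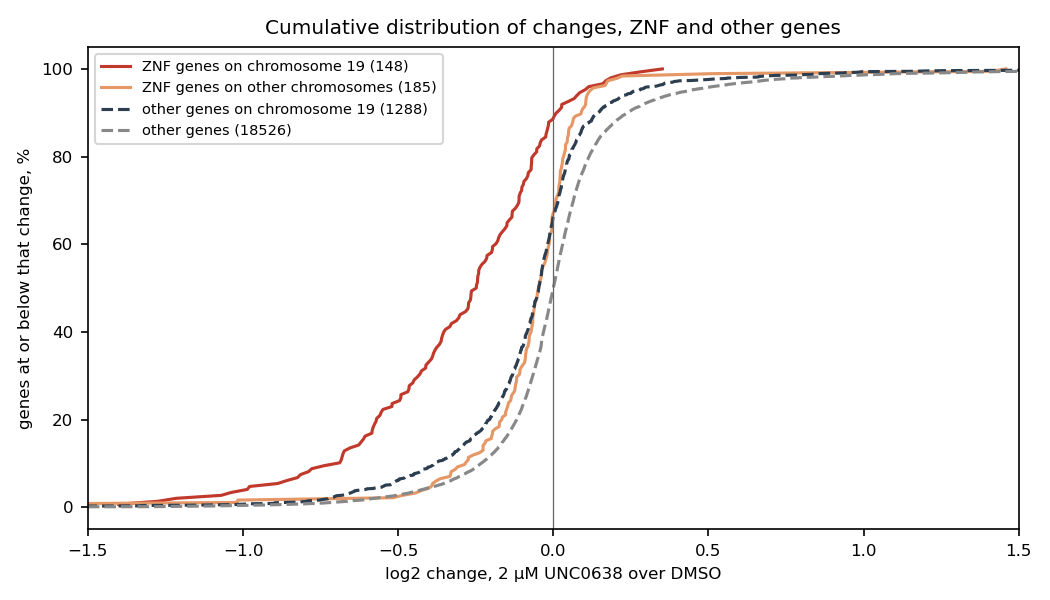
Cumulative percentage of genes at or below each log2 change at 2 µM UNC0638 over DMSO, for ZNF genes and other genes on chromosome 19 and elsewhere. ZNF genes are those with a symbol of ZNF and digits alone. The curve of the 148 ZNF genes on chromosome 19 lies left of the other 3, with its median at -0.25.

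Called genes were then read along the genome. A run was 3 or more neighbouring tested genes called in 1 direction, and there were 21 runs of rises and 20 of falls, of which 5 and 9 held at least 4 genes. Overlapping names, which may share reads, were counted as separate neighbours. How many runs chance would give was not tested. On chromosome 1 MNDA, PYHIN1, IFI16, AIM2 and DUSP23 rose side by side. MNDA, a nuclear antigen of myeloid cells, had 267, 251 and 257 CPM at 2 µM, against 226, 214 and 204 CPM in DMSO (log2 change 0.27 ± 0.04, adjusted p = 4.76e-05). AIM2 (0.42 ± 0.12) and DUSP23 (0.22 ± 0.07) lost their calls in some settings, the fit of the 6 libraries alone among them. The OAS genes formed a run on chromosome 12 (chr12:113344582-113455556) together with RP1-71H24.1, which overlaps them. HLA-DRA to HLA-DQA1 and PSMB9 to HLA-DMA were 2 runs on chromosome 6 (chr6:32407619-32614839 and chr6:32811913-32936871), and CCL2, CCL7, CCL8 and CCT6B 1 on chromosome 17, of which CCL2 alone kept its call in every setting. Of the 9 runs of falls 7 lay on chromosome 19 and 1, ZNF605 to ZNF140, on chromosome 12. The last, on chromosome 7, held STAG3L5P, PVRIG2P, PILRB and the joint name STAG3L5P-PVRIG2P-PILRB within 31.8 kb, so its 4 names are not separate genes. A run on chromosome 19 likewise held ZNF559, ZNF177 and the joint name ZNF559-ZNF177.

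Between 4 and 2 µM UNC0638, 280 genes were higher (1.39%) and 91 lower (0.452%), 371 in all (1.84%), or 236 in the fit of these 6 libraries alone. Both doses were set against the same 3 DMSO libraries, so the direct difference between doses was tested, and a gene named for its level at 2 µM may lie lower at 4 µM by that choice alone. Of 36 antiviral effectors 23 were higher at 4 than at 2 µM and 0 lower, with a median difference of 0.51. IFI27 averaged 0.525 ± 0.0427 CPM in DMSO, 3.31 ± 0.0677 CPM at 2 µM and 8.98 ± 0.337 CPM at 4 µM (SD, n = 3 each), a log2 difference between doses of 1.44 ± 0.08, adjusted p = 6.43e-12. SIGLEC1 averaged 6.55 ± 1.16 CPM in DMSO, 26.2 ± 0.671 CPM at 2 µM and 55.6 ± 1.83 CPM at 4 µM (log2 difference between doses 1.09 ± 0.06, adjusted p = 1.49e-11). IFIT2, not called at 2 µM, was higher at 4 than at 2 µM (0.47 ± 0.06, adjusted p = 7.30e-06). OAS2 (1.48 ± 0.13), TDO2 (1.31 ± 0.14) and SLAMF7, a receptor of lymphoid and myeloid cells (1.11 ± 0.12), were also higher at 4 than at 2 µM. MMP1 averaged 7.99 ± 0.541 CPM in DMSO, 20.2 ± 0.986 CPM at 2 µM and 49.8 ± 3.58 CPM at 4 µM, a log2 difference between doses of 1.30 ± 0.06, adjusted p = 2.29e-13. Beyond these lists, 5 of 31 hypoxia and glycolysis genes were lower at 4 than at 2 µM, ADM (-0.50 ± 0.08) and PFKFB4 (-0.46 ± 0.04) among them, and 5 of 19 granule genes, PRTN3 among them (-0.49 ± 0.09).

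Of 14 MHC class II genes 1 was higher at 4 than at 2 µM, and of 148 ZNF genes on chromosome 19 0 were called, where 1.84% of all genes were. HLA-DRA averaged 29.6 ± 0.736 CPM in DMSO, 63.8 ± 3.28 CPM at 2 µM and 66.2 ± 2.56 CPM at 4 µM, a log2 difference between doses of 0.05 ± 0.06 whose range of 2 standard errors ran from -0.07 to 0.17. Of the 20 genes with the largest rises at 2 µM, 7 were higher at 4 than at 2 µM. Besides IFI27, SIGLEC1 and IFI6 these were PKD1L1 (0.84 ± 0.08, adjusted p = 1.31e-07), IL22RA2 (0.69 ± 0.07, adjusted p = 1.95e-07), CD180 (0.56 ± 0.10, adjusted p = 7.72e-04) and KYNU (0.49 ± 0.12, adjusted p = 0.0238). The other 13 were not called between doses. For ITGA2B the range of 2 standard errors was -0.29 to 0.14, for CHRNB4 -0.22 to 0.26, for CSRP3 -0.01 to 0.34 and for ZNF117 -0.46 to 0.24 on the log2 scale. Medians over a list were taken in each library. Antiviral effectors stood at 0.41 to 0.45 above the DMSO mean in the libraries at 2 µM and at 0.87 in those at 4 µM. MHC class II genes stood at 0.44 to 0.51 at 2 µM and at 0.49 to 0.69 at 4 µM, and granule proteins at -0.06 to 0.08 in DMSO, -0.15 to -0.07 at 2 µM and -0.25 to -0.02 at 4 µM. ZNF genes on chromosome 19 stood at -0.24 to -0.20 at 2 µM and -0.26 to -0.23 at 4 µM.

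**Figure D4:**
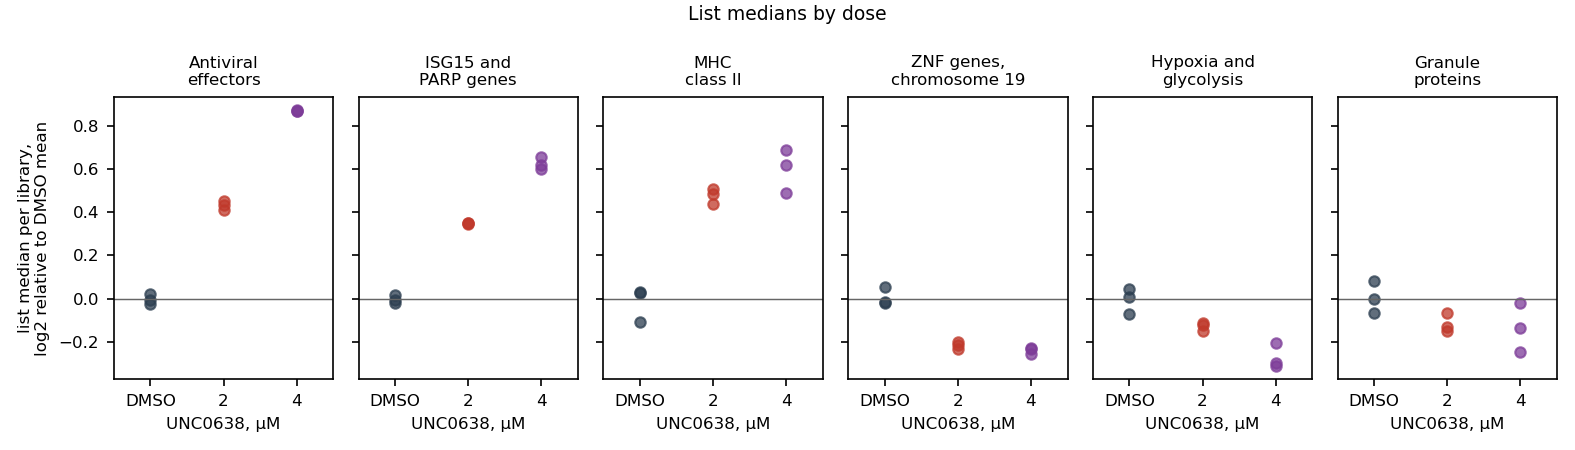
Median over the members of 6 gene lists of log2(CPM + 0.5) relative to the mean of the DMSO libraries, 1 point a library, at DMSO, 2 and 4 µM UNC0638. Antiviral effectors and ISG15 genes step up at both doses, and ZNF genes on chromosome 19 lie between -0.26 and -0.20 at both.

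UNC0638 at 2 µM was compared with knockdown of G9a, each against its own control. The hairpins lowered the transcript, with EHMT2 at 73.7 ± 2.79 CPM for hairpin 2 and 73.2 ± 3.69 CPM for hairpin 3, against 144 ± 8.52 CPM with the scrambled hairpin (log2 change -0.97 ± 0.05, adjusted p = 9.22e-14), in a comparison that called 49.9% of genes and 72.9% of repeats. The difference between the drug and hairpin responses was called for 8220 genes (40.8%), 4164 higher with the drug (20.7%) and 4056 lower (20.1%). A gene named for a large change at 2 µM tends to a large difference by that choice. Selection is given for the G9a hairpins and not for the scrambled one, so knockdown and selection cannot be told apart. Of 36 antiviral effectors 23 were higher in the drug response than in the knockdown response and 2 lower, and of 14 MHC class II genes 10 were higher and 0 lower. HLA-DRA fell with the hairpins, to 21.6 ± 1.33 and 24.9 ± 3.05 CPM against 42.3 ± 1.37 CPM with the scrambled hairpin (-0.87 ± 0.05), and rose with the drug, a difference of 1.98 ± 0.08, adjusted p = 5.81e-16. CSRP3 moved in the same directions, with 0.109 ± 0.0749 and 0.159 ± 0.0213 CPM in the hairpin groups against 1.62 ± 0.163 CPM with the scrambled hairpin, and a difference of 5.70 ± 0.23, adjusted p = 1.72e-16. CHRNB4 (5.03 ± 0.38) and IL22RA2 (4.06 ± 0.13) likewise fell with the hairpins and rose with the drug. ZNF genes on chromosome 19 were lower in the drug response for 79 of 148 and higher for 5. ZNF117 rose with the hairpins (1.36 ± 0.09) and fell with the drug, with a difference of -3.48 ± 0.16, adjusted p = 6.11e-15. In the other direction, KCNMB1, a potassium channel subunit, had 46.00 ± 1.32 and 49.5 ± 3.69 CPM in the hairpin groups against 5.98 ± 0.120 CPM with the scrambled hairpin and was not called with the drug (-0.17 ± 0.08), a difference of -3.16 ± 0.11, adjusted p = 7.35e-18. MARCO rose under both treatments (0.90 ± 0.07 with the drug, 0.97 ± 0.06 with the hairpins), and its difference was not called (-0.06 ± 0.09, adjusted p = 0.610).

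Of 929 repeat names 7 rose (0.753%) and 38 fell (4.09%), 45 in all (4.84%), and none changed 2-fold. All repeats together made up 5.58 ± 0.04% of gene counts at 2 µM and 5.94 ± 0.17% in DMSO (SD, n = 3 each), and the median repeat had a log2 change of -0.09. Scaled to the repeat totals with their own factors, 25 rose and 8 fell, the opposite split. Leaving out 1 library brought the count to 27 (DMSO library 2), 14 (DMSO library 3), 12 (2 µM library 1) or 25 (2 µM library 2). Repeats of 1 family are near-identical and may be miscounted. LTR13_, the long terminal repeat of a HERVK element, had 3.68, 3.80 and 4.43 CPM at 2 µM, against 6.09, 6.18 and 6.07 CPM in DMSO (log2 change -0.61 ± 0.09, adjusted p = 1.64e-04). L1M3a, an old LINE-1, had 6.66, 5.86 and 5.79 CPM at 2 µM, against 10.04, 8.53 and 8.20 CPM in DMSO (log2 change -0.55 ± 0.09, adjusted p = 2.50e-04). Both fell without overlap, which the choice of the largest falls requires, and both also fell under the other scaling. HERV3-int, the internal part of the element that carries ERV3-1, fell (-0.19 ± 0.04), a call that ended under the other scaling. Rises were fewer. MER61-int had 67.6, 65.9 and 68.02 CPM at 2 µM, against 59.2, 55.97 and 53.6 CPM in DMSO (log2 change 0.26 ± 0.04, adjusted p = 8.54e-04), part of an endogenous retrovirus whose long terminal repeat MER61A rose (0.26 ± 0.06) with a call that ended when single libraries were left out, and the 2 groups of MER61-int libraries did not overlap.

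By class, the young LINE-1 names gave 0 calls of 9 (median -0.11), older LINE-1 names 5 falls of 98, Alu names 3 falls and 1 rise of 40, LTR12 names 0 calls of 7 and satellites 2 falls of 20. These stand beside 4.09% of all repeats lower and 0.753% higher. Over the alternatives run the falls ranged from 1 (without the 2 libraries numbered 1) to 11 (DESeq2) among older LINE-1 names, and from 0 to 15 (DESeq2) among Alu names. Alu falls were 0 under the other scaling and with any single library left out other than DMSO library 2. With levels scaled to the gene table, all 3 libraries at 2 µM lay below all 3 DMSO libraries for 250 repeats (26.9%) and above them for 27 (2.91%). Between 4 and 2 µM 2 repeats were higher (0.215%) and 1 lower (0.108%), 3 in all (0.323%): FAM (0.27 ± 0.04), LTR67B (0.20 ± 0.04) and the satellite SST1 (-0.29 ± 0.06), of which LTR67B and SST1 lost their calls when single libraries were left out. Under that gene-table scaling the median repeat had a log2 change of 0.28 with the G9a hairpins and -0.09 with the drug. In the same scaling, the only one counted here, 613 repeats differed between the drug and knockdown responses (66%). How far 1 shift of all repeats makes up these differences was not tested. Of the 613, 586 (63.1%) were lower with the drug than with the G9a hairpins and 27 (2.91%) higher. L1M3a, for example, rose with the hairpins (0.70 ± 0.07) and fell with the drug, a difference of -1.26 ± 0.11, adjusted p = 3.72e-09.

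**Figure D5:**
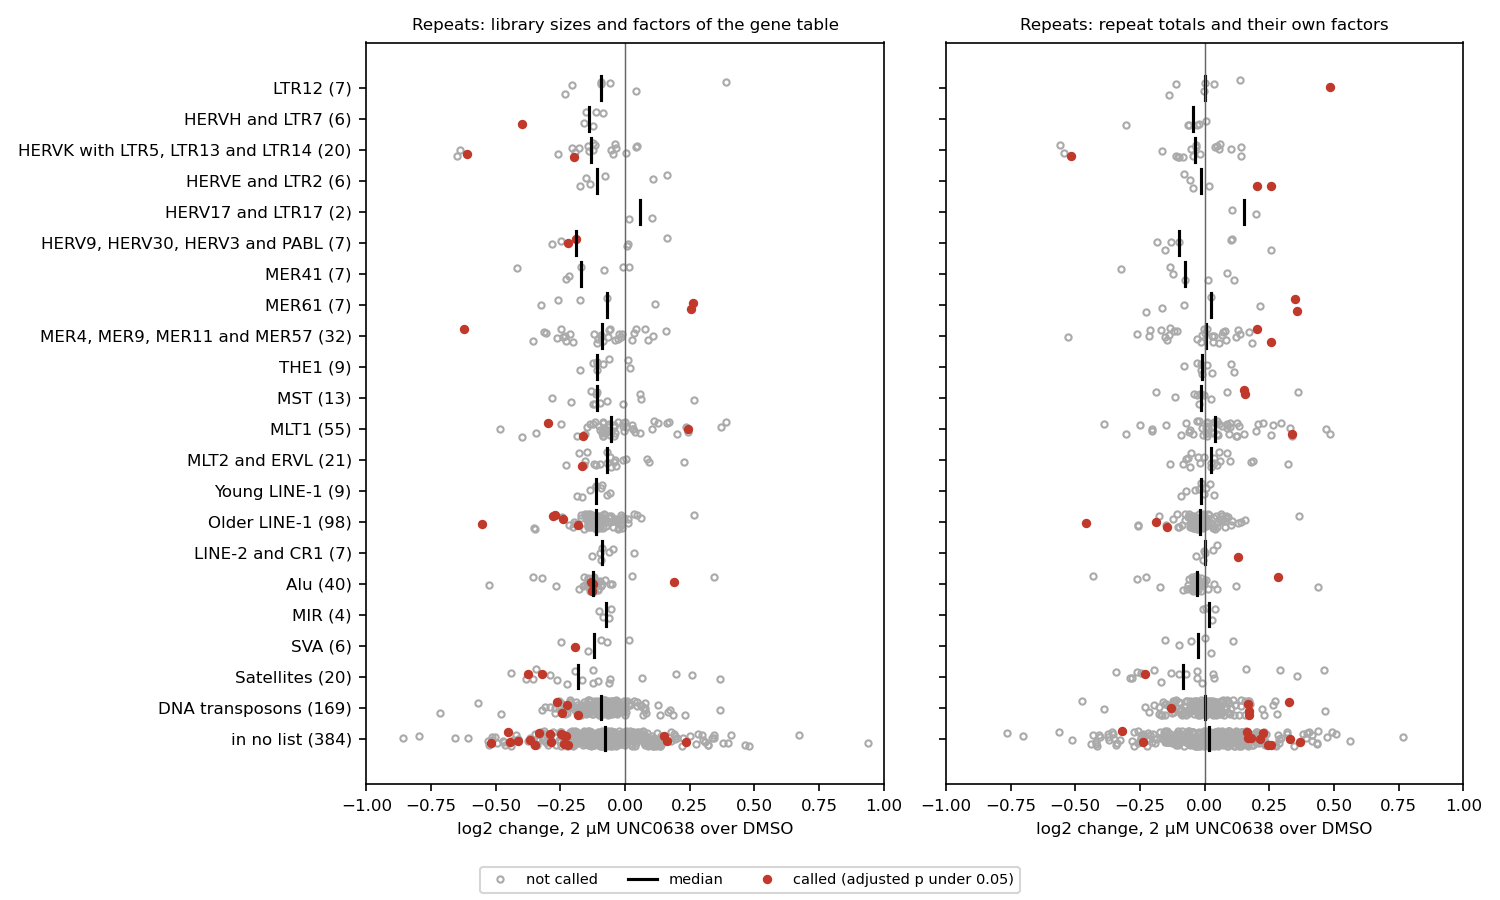
Log2 change at 2 µM UNC0638 over DMSO for each tested repeat name by class, scaled with the gene table (left) and with the repeat totals (right); red points were called and black marks are class medians. Most medians lie left of 0 on the left and close to 0 on the right, where 25 calls are rises and 8 are falls.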

How the data were processed

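RNA was extracted on Qiagen RNeasy columns and made into libraries with the TruSeq RNA v2 kit, per the labels. That kit keeps no strand information, so a gene and one that overlaps it or runs antisense to it share reads. Per the submitters' processing notes, the authors used STAR, featureCounts and hg19. No versions, settings or treatment of multiply mapped reads were given in the sources consulted. The deposited tables hold whole-number counts per gene name (55773, with 122 names in more than 1 place) and per repeat name (992). Their other deposited value, a length per name, was not used for any result. No counts were listed for the 37 mitochondrial names.

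Counts were tested with edgeR 4.0.16 in R 4.3.3 (filterByExpr with a minimum count of 10 and a minimum total of 15, TMM factors, quasi-likelihood test), 1 fit over all 24 libraries with a mean per group, in which the groups share 1 estimate of the spread (biological coefficient of variation 4.63% for genes and 5.34% for repeats). Repeats took library sizes and factors from the gene table. Groups and replicate numbers come from the labels. Contrasts were 2 µM against DMSO, 4 against 2 µM, and the 2 µM response minus the response to the G9a hairpins. The fit was tested on simulated counts. CPM are TMM-scaled.

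Genes named were EHMT1, EHMT2, SUV39H1 and SUV39H2; the 20 called genes with the largest fold change in each direction, with a mean of at least 2 CPM in the higher group, groups that do not overlap and a symbol that is not clone-based; in each list with at least 2 calls, up to 4 of the called genes by smallest p; the repeats chosen likewise at 1 CPM; the genes and repeats with the largest called changes between doses and, for genes, from the hairpin response; members of runs of at least 4 genes; and the ZNF genes with the smallest p. Further list members were named after their values were seen, as landmarks of a pathway. Some genes that these rules choose are not reported here. The libraries, members and gene lists were chosen with earlier results of these data known. Promoter sequences are RefSeq's (GRCh38.p14), and 11320 of 20147 tested genes (56.2%) had one, too few to compare the shares of promoters with a match between groups of genes, so that check was void.

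Alternatives were DESeq2 1.42.0, RLE scaling, no count filter, the replicate number as a block, the compared libraries alone, repeat totals with their own factors, and each library left out; leaving out both libraries numbered 1 was added after the data were seen.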

Additional observations from a re-analysis of the deposited data

How the results depend on the processing

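The count of genes called at 2 µM against DMSO was 1444 and ranged from 995 to 2197 when single libraries were left out. It was 717 in the fit of the 6 libraries alone. Other settings gave 1349 with DESeq2, 1440 with RLE scaling, 1581 with no filter and 1208 without the 2 libraries numbered 1, which were set aside together after the data were seen. For repeats at 2 µM the count was 45, with a range of 12 to 34 when single libraries were left out, 80 with DESeq2, 33 with repeat totals and their own factors, and 12 without the 2 libraries numbered 1. Between 4 and 2 µM 371 genes were called, 236 in the fit of the compared libraries alone and 215 to 276 when single libraries were left out, and 3 repeats were called, 1 to 2 when single libraries were left out. The gene count between doses was 243, 215 and 246 without 2 µM libraries 1, 2 and 3, and 224 without 4 µM library 2. The causes of these shifts were not tested.

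The replicate number as a block gave 1703 genes and 63 repeats at 2 µM and 470 genes between doses, and moved none of these counts by over 1.5 times. Deviations of same-numbered libraries from their group means correlated at 0.228, 0.0557 and 0.116 across 20147 genes. Libraries 1 and 3 at 2 µM correlated best with the DMSO library of their own number, and library 2 with DMSO library 3 (0.0874). The main fit did not take the numbers as pairs, and these values do not settle whether they are.

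Of 299 named genes and repeats 257 were called at 2 µM, 170 of them in the same direction under every alternative run, and 0 changed direction. Depth limits the genes near 0, where few counts stand behind a value.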
